A study of Homo sapiens with 6 samples.

Results

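The genes described here are Sprouty, SPRED and ETV genes and PHLDA1, which are known as outputs of the kinase ERK. They are 9 genes, SPRY1, SPRY2, SPRY4, SPRED1, SPRED2, ETV1, ETV4, ETV5 and PHLDA1. Every probe set of the array that names 1 of them and no other gene was taken, which gave 28 probe sets of 54675. Their transcripts were measured in DLD1 cells. DLD1 is a human colorectal adenocarcinoma cell line known to carry a truncated APC protein. The cells had been exposed for 12 h to 10 µM SAH-BCL9B (3 arrays) or to the DMSO vehicle (3 arrays). SAH-BCL9B is a hydrocarbon-stapled peptide modelled on the helix of BCL9 that binds beta-catenin. The labels call the cultures triplicates of 1 cell line, so p-values measure the spread between these cultures, and there was no control peptide.

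ERK is the last kinase of the cascade that runs from RAS through RAF and MEK, and it is active in many colorectal cancers. It induces its own inhibitors: Sprouty proteins act on receptor signalling upstream of RAF, and SPRED proteins recruit the RAS GTPase-activating protein neurofibromin to the membrane. ETV1, ETV4 and ETV5 form the PEA3 group of ETS transcription factors, and PHLDA1, a protein with a pleckstrin homology-like domain, is often read together with them as a transcript that follows ERK activity.

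All values are log2 expression levels. A change is the mean of SAH-BCL9B minus that of vehicle, tested for each probe set with limma, with Benjamini-Hochberg adjustment over all 54613 probe sets that are not array controls. The threshold was an adjusted p of 0.05. Array medians lay between 6.58 and 6.62. SAH-BCL9B 2 stood apart from the other arrays: the SD of its differences from SAH-BCL9B 1 and 3 was 0.36 and 0.33, against 0.19 between those 2 arrays and 0.21 to 0.24 among the vehicle arrays. The 3' minus 5' difference of the ACTB control probe sets, a measure of RNA integrity and labelling, was 0.74 in SAH-BCL9B 2, 1.20 and 1.33 in SAH-BCL9B 1 and 3, and 1.21 to 1.38 in the vehicle arrays. The same difference for GAPDH did not set SAH-BCL9B 2 apart. It was 0.14 there, 0.13 and 0.085 in SAH-BCL9B 1 and 3, and 0.13 to 0.17 in the vehicle arrays. The labelled cell type was checked by its markers: all 10 colorectal epithelial markers, such as EPCAM, KRT18 and CDH1, lay above the median of all probe sets in vehicle arrays (log2 7.17 to 14.90). Of 10 markers of immune, endothelial, stromal and liver cells, 3 did (CD3D at 6.77, PECAM1 at 7.25 and COL1A1 at 8.55). PECAM1 and COL1A1 read above the dimmest epithelial marker, CEACAM5 at 7.17, so the 2 lists overlapped in level.

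Of the 28 probe sets, 2 passed the threshold, 1 lower (SPRY4) and 1 higher (PHLDA1) after SAH-BCL9B. Over all probe sets 2.5% passed, 1.12% higher and 1.37% lower, and 1 probe set in each direction is too few to read against these shares. Left out in turn, SAH-BCL9B 1, SAH-BCL9B 3, vehicle 1, vehicle 2 and vehicle 3 each took the count to 0, and without SAH-BCL9B 2 it was 3. The SAH-BCL9B arrays did not overlap the vehicle arrays in 9 of the 28 probe sets, 4 upward and 5 downward, against 22% of all probe sets. The median change was 0.013 for the 28 probe sets and 0.012 for all probe sets, and 15 of the 28 were positive. The 9 genes did not share a direction: SPRY4, SPRED1, SPRED2 and ETV5 had lower means in SAH-BCL9B in most or all of their probe sets. The brightest SPRED2 probe set changed by only -0.020, and another was higher (0.10). SPRY1, SPRY2, ETV1 and ETV4 had higher means in most or all, by only 0.0072 in SPRY2. The brightest ETV1 probe set was lower (-0.20). Among the probe sets of these genes only that of SPRY4 passed. PHLDA1 differed from probe set to probe set. In vehicle arrays 22 of the 28 lay above the median of all probe sets. Brightness depends on the probes as well as on the transcript, so the genes are not ranked by level.

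**Figure D1:**
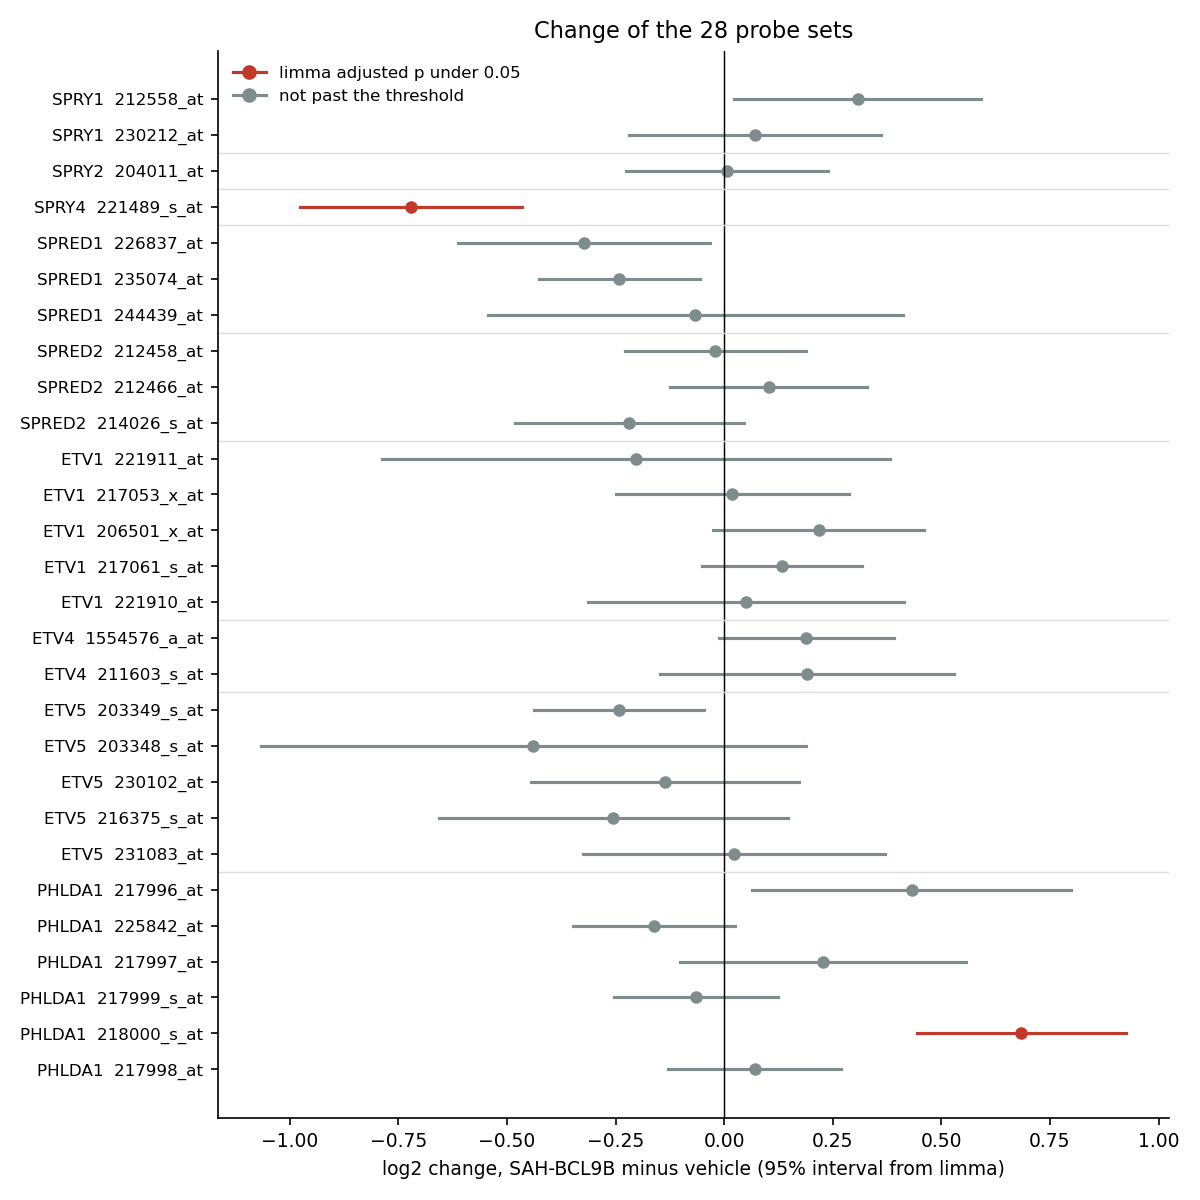
The log2 change of each of the 28 probe sets (x axis, SAH-BCL9B minus vehicle) with its 95% interval, grouped by gene and ordered within a gene from the brightest probe set down. SPRY4 and 1 probe set of PHLDA1 are the 2 past the threshold, on opposite sides of 0, at -0.72 and 0.68.

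The promoters of these 2 genes are shown because they carry the changes that passed the test. The sequences are RefSeq's (GRCh38.p14), the 250 bases before the transcription start on the gene's own strand, at chr5:142324248-142324497 (minus strand) for SPRY4 and chr12:76031777-76032026 (minus strand) for PHLDA1. Capitals mark a match, on either strand, to the ETS core CCGGAA, the AP-1 site TGANTCA, the CRE TGACGTCA or the TCF core CTTTGA.
SPRY4: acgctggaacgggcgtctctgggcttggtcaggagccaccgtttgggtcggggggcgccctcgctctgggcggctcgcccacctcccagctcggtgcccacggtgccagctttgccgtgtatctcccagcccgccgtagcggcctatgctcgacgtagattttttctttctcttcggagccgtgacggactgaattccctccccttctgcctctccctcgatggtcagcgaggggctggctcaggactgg
PHLDA1: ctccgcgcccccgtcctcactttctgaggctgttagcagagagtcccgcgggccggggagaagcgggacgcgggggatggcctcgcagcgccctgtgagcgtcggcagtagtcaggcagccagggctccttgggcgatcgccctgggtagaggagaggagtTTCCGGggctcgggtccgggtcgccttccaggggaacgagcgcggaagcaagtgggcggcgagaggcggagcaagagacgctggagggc
The PHLDA1 window held 1 ETS core in the form CCGGAA, on the opposite strand 89 to 84 bases before the start, and none of the other motifs. The SPRY4 window held none of the 4 in the forms given. The shorter stretch GGAA, which occurs in both windows, was not counted by itself. Of all 34943 promoter windows of that length, 14.5% held the ETS core, 6.59% the AP-1 site, 1.63% the CRE and 11.2% the TCF core. RefSeq windows were matched for 7 of the 9 genes, 16 windows in all. The ETS core was also found in 1 of the 2 windows of SPRY1, 1 of the 3 of SPRY2 and 3 of the 6 of ETV1, of which 2 overlap, and the TCF core in 1 window of SPRY2, with 2 matches. A match is a run of letters in a window and was not tested as a binding site.

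Among the Sprouty genes, which encode feedback inhibitors of receptor tyrosine kinase signalling, SPRY4 was lower. Its only probe set, 221489_s_at, read 8.62, 8.69 and 8.52 in SAH-BCL9B 1, 2 and 3, against 9.14, 9.47 and 9.39 in vehicle 1, 2 and 3. No other probe set of SPRY4 was there to compare it with. The highest SAH-BCL9B array thus lay below the lowest vehicle array. The means were 8.61 ± 0.08 in SAH-BCL9B and 9.33 ± 0.17 in vehicle (SD, n = 3 each), a change of -0.72 ± 0.11 (SE) or 1.65-fold lower (95% interval -0.98 to -0.47, limma adjusted p = 0.0234). The call did not hold without SAH-BCL9B 1, SAH-BCL9B 3, vehicle 1, vehicle 2 or vehicle 3 (limma adjusted p = 0.0622 to 0.113), although the change stayed between -0.82 and -0.65. Fitted with 1 probe set a gene and adjusted over 19775 genes, the adjusted p in limma was 0.00853. Each array averages a whole culture, so fewer cells with a transcript and less of it per cell cannot be told apart.

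SPRY1, the Sprouty gene with the largest upward change, did not pass. Probe set 212558_at read 9.69, 9.31 and 9.46 in SAH-BCL9B 1, 2 and 3, against 9.15, 9.31 and 9.07 in vehicle 1, 2 and 3. SAH-BCL9B 2 fell within the range of the vehicle arrays. The change was 0.31 ± 0.12 (SE, 95% interval 0.02 to 0.59, limma adjusted p = 0.28), and the dimmer probe set 230212_at had 0.071 (95% interval -0.22 to 0.36).

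SPRY2, a widely expressed member of the same group, had overlapping groups. Probe set 204011_at, its only one, read 9.45, 9.37 and 9.49 in SAH-BCL9B 1, 2 and 3, against 9.45, 9.56 and 9.28 in vehicle 1, 2 and 3. The change was 0.0072 ± 0.10 (SE, limma adjusted p = 0.989), and the 95% interval of -0.23 to 0.24 did not include the change measured for SPRY4. The difference between the Sprouty genes was not tested itself.

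Both SPRED genes encode membrane-associated inhibitors of RAS signalling. SPRED1 had a negative change in each of its 3 probe sets, and none passed. Probe set 226837_at read 10.62, 10.37 and 10.64 in SAH-BCL9B 1, 2 and 3, against 10.92, 11.01 and 10.66 in vehicle 1, 2 and 3. The groups were just apart, and the change was -0.32 ± 0.12 (SE, limma adjusted p = 0.266). Probe set 235074_at read 9.14, 9.26 and 9.17 in SAH-BCL9B 1, 2 and 3, against 9.43, 9.41 and 9.45 in vehicle 1, 2 and 3. The groups did not overlap there either, with a change of -0.24 ± 0.08 (SE, limma adjusted p = 0.191). The dimmest, 244439_at, spread from 6.51 to 7.18 in SAH-BCL9B and from 6.72 to 7.29 in vehicle, and its change was -0.067 (95% interval -0.54 to 0.41).

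SPRED2 showed no change that could be told from the spread between arrays. Its bright probe set 212458_at read 12.03, 11.96 and 11.82 in SAH-BCL9B 1, 2 and 3, against 11.94, 12.01 and 11.92 in vehicle 1, 2 and 3. The groups overlapped, with a change of -0.020 ± 0.089 (SE, 95% interval -0.23 to 0.19, limma adjusted p = 0.959). The other 2 probe sets lay below the array medians, with vehicle means of 5.64 for 212466_at and 4.26 for 214026_s_at, and changed by 0.10 and -0.22 without passing (limma adjusted p = 0.728 and 0.432).

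**Figure D2:**
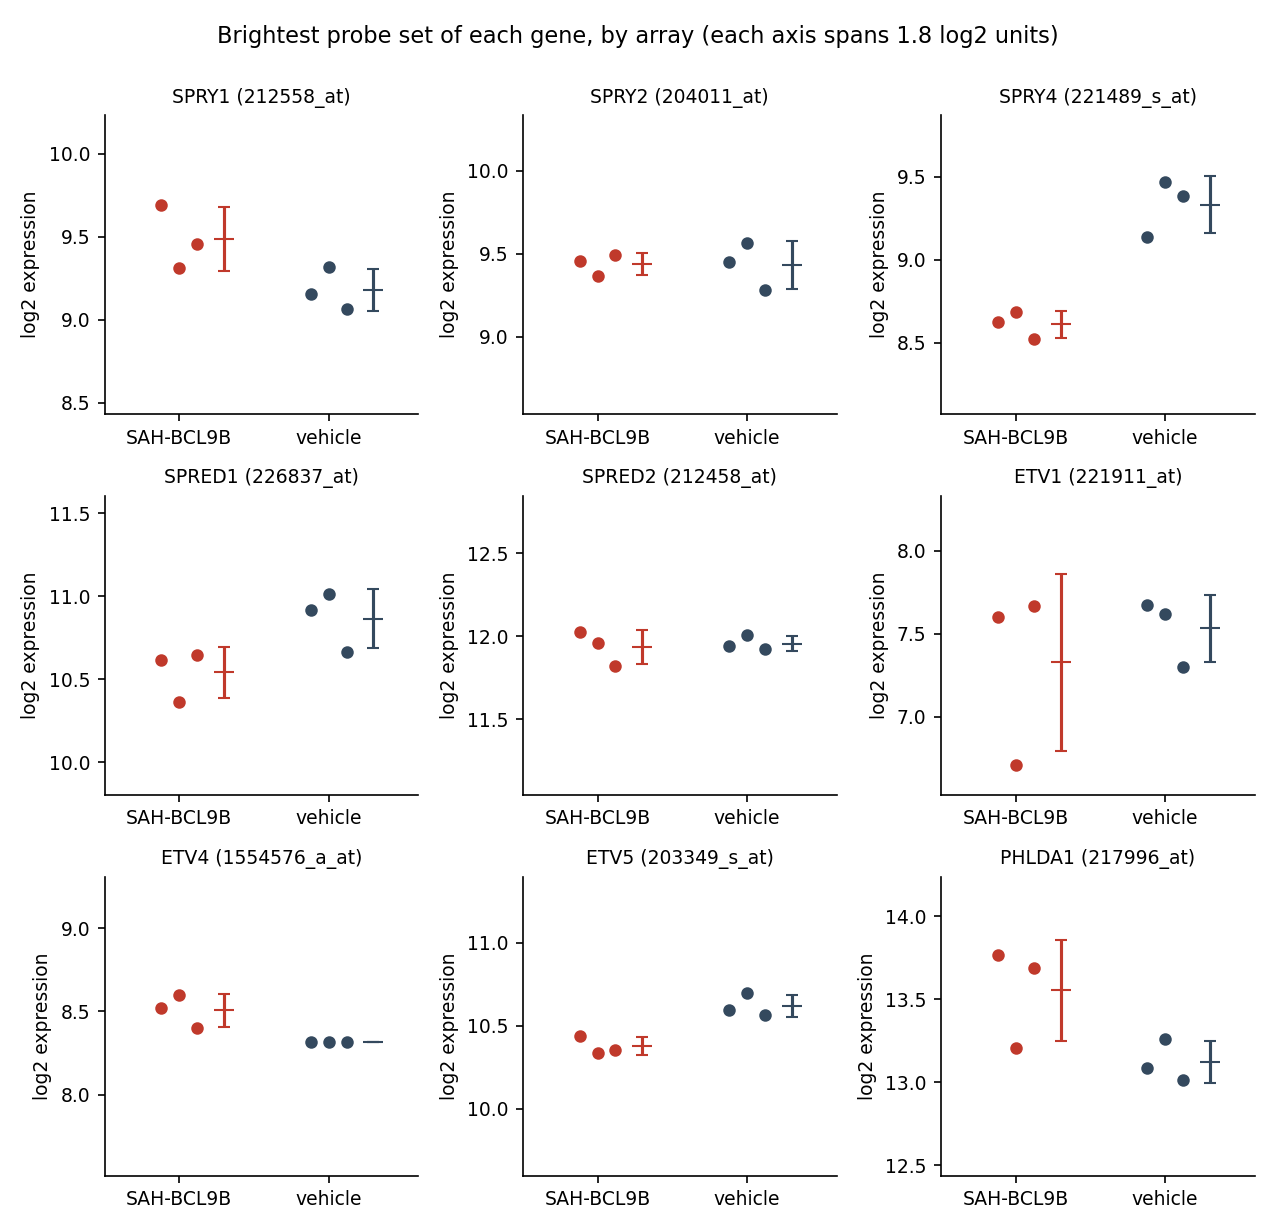
Log2 expression (y axis) of the brightest probe set of each gene in the 3 SAH-BCL9B arrays and the 3 vehicle arrays, each array a point in the order 1, 2, 3, with the mean and SD beside them. SPRY4 shows the widest gap between the groups, from 8.69 in the highest SAH-BCL9B array to 9.14 in the lowest vehicle array, and SPRY2 and SPRED2 overlap.

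The PEA3 factors bind ETS sites and are transcribed in response to ERK. ETV5 had a negative change in 4 of 5 probe sets, none past the threshold. Probe set 203349_s_at read 10.44, 10.34 and 10.35 in SAH-BCL9B 1, 2 and 3, against 10.60, 10.70 and 10.56 in vehicle 1, 2 and 3. The groups did not overlap, and the change was -0.24 ± 0.08 (SE, limma adjusted p = 0.212). Probe set 203348_s_at read 9.86, 8.71 and 9.47 in SAH-BCL9B 1, 2 and 3, against 10.00, 9.64 and 9.71 in vehicle 1, 2 and 3. SAH-BCL9B 2, the array with the low ACTB difference, was far below the others there: the change was -0.44 ± 0.27 (SE, limma adjusted p = 0.529) with it and -0.12 without it. The probe sets 216375_s_at and 230102_at changed by -0.26 and -0.14, and 231083_at, with a vehicle mean of 4.71, by 0.023. Without SAH-BCL9B 2 the first 2 had -0.11 and -0.059. The change of 216375_s_at was also smaller without vehicle 1 (-0.12), and that of 230102_at without vehicle 2 (-0.054).

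ETV4 had a positive change in both of its probe sets, and neither passed. Probe set 1554576_a_at read 8.52, 8.60 and 8.40 in SAH-BCL9B 1, 2 and 3, against 8.32 in each of the 3 vehicle arrays. All SAH-BCL9B arrays were above all vehicle arrays, with a change of 0.19 ± 0.09 (SE, 95% interval -0.01 to 0.39, limma adjusted p = 0.361). Probe set 211603_s_at read 8.28, 8.62 and 8.06 in SAH-BCL9B 1, 2 and 3, against 8.21, 8.03 and 8.15 in vehicle 1, 2 and 3. There the groups overlapped, at 0.19 ± 0.15 (SE, limma adjusted p = 0.641). Without SAH-BCL9B 2 the change was 0.041 in 211603_s_at and 0.14 in 1554576_a_at.

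ETV1 ran from 5.31 to 7.53 in vehicle over 5 probe sets, 2 of them above the median of all probe sets, and none passed. Its brightest probe set, 221911_at, read 7.60, 6.71 and 7.67 in SAH-BCL9B 1, 2 and 3, against 7.67, 7.62 and 7.30 in vehicle 1, 2 and 3. Again SAH-BCL9B 2 was low, and the change was -0.20 ± 0.25 (SE, limma adjusted p = 0.806) with it and 0.10 without it. In the probe sets whose groups did not overlap the change was upward, 0.22 in 206501_x_at and 0.13 in 217061_s_at (limma adjusted p = 0.388 and 0.51). Their vehicle means were 6.59 and 5.93. The suffix _x_at marks probes that also match other sequences. The remaining 217053_x_at and 221910_at changed by 0.019 and 0.051.

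PHLDA1 was bright in all 6 of its probe sets, which did not move alike. Probe set 218000_s_at read 10.16, 10.31 and 9.99 in SAH-BCL9B 1, 2 and 3, against 9.43, 9.45 and 9.52 in vehicle 1, 2 and 3. Every SAH-BCL9B array was above every vehicle array. The means were 10.15 ± 0.16 in SAH-BCL9B and 9.47 ± 0.05 in vehicle (SD, n = 3 each), a rise of 0.68 ± 0.10 (SE) or 1.61-fold (95% interval 0.44 to 0.92, limma adjusted p = 0.023). The call did not hold without SAH-BCL9B 1, SAH-BCL9B 3, vehicle 1, vehicle 2 or vehicle 3 (limma adjusted p = 0.0629 to 0.124).

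The brightest PHLDA1 probe set, 217996_at, read 13.77, 13.20 and 13.69 in SAH-BCL9B 1, 2 and 3, against 13.09, 13.26 and 13.02 in vehicle 1, 2 and 3. SAH-BCL9B 1 and 3 lay above the vehicle arrays and SAH-BCL9B 2 among them. The change was 0.43 ± 0.16 (SE, limma adjusted p = 0.239). Without SAH-BCL9B 2 it was 0.61 and passed (limma adjusted p = 0.0357), as it did with array weights (0.0441) and with the ACTB difference as a covariate (0.0454). The adjusted p ran from 0.0357 to 0.502 over 14 alternatives.

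Other PHLDA1 probe sets did not follow. Probe set 225842_at read 12.75, 12.78 and 12.74 in SAH-BCL9B 1, 2 and 3, against 12.99, 12.91 and 12.87 in vehicle 1, 2 and 3. All SAH-BCL9B arrays were lower there, by -0.16 ± 0.08 (SE, 95% interval -0.35 to 0.02, limma adjusted p = 0.405). The probe sets 217997_at, 217998_at and 217999_s_at changed by 0.23, 0.070 and -0.066, with overlapping groups. The change of 217997_at was 0.077 without SAH-BCL9B 1 and 0.33 without SAH-BCL9B 2. The platform annotation ties 3 of the 6 to the same RefSeq transcript record, and these were 218000_s_at at 0.68, 217998_at at 0.070 and 217999_s_at at -0.066. The 95% interval of 218000_s_at did not overlap that of 217998_at (-0.13 to 0.27), of 217999_s_at (-0.25 to 0.12) or of 225842_at, though the difference between probe sets was not tested itself. The mean of all 6 probe sets gave 0.20 ± 0.07 (SE, limma adjusted p = 0.192 over genes). These arrays give no single direction for PHLDA1.

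**Figure D3:**
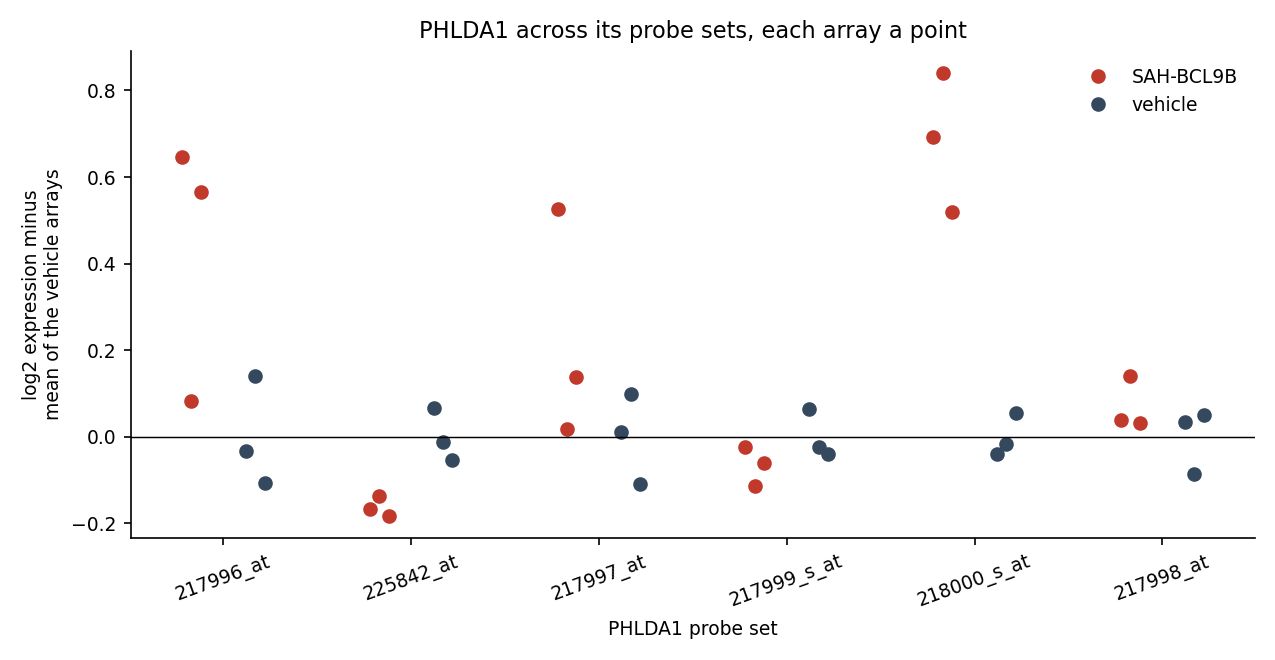
PHLDA1 in each array (points), as log2 expression minus the mean of the vehicle arrays (y axis), for its 6 probe sets from the brightest at the left. In 218000_s_at all SAH-BCL9B points are above the vehicle points, in 225842_at all are below, and in 217996_at and 217997_at the SAH-BCL9B arrays spread.

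The gene closest to SPRY4 in its pattern over the 6 arrays was the long non-coding RNA LINC02535, with a root mean square distance of 0.061 between log2 profiles centred on their means, against a median distance of 0.40 over all genes. KDM7A-DT and FIGNL1, an AAA ATPase gene known in DNA repair, followed at 0.065 and 0.074. Their changes were -0.69, -0.77 and -0.67, which the choice by likeness to SPRY4 fixes, so they are a description of 6 arrays with no test.

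Other genes known to be induced by ERK moved both ways. With 1 probe set a gene, 6.93% of 19775 genes passed, 3.49% higher and 3.43% lower. Of 22 listed ERK output genes outside the 9, 21 were measured: 5 rose, 3 fell and 13 did not pass (median change 0.19, against 0.020 over all genes). The dual-specificity phosphatase gene DUSP5, whose product inactivates nuclear ERK, rose by 1.15 ± 0.12 (SE), and DUSP7, which encodes another ERK phosphatase, by 0.53 ± 0.12 (limma adjusted p = 0.00268 and 0.0402). PLAUR, the urokinase receptor gene, and the AP-1 subunit gene FOSL1 rose by 0.52 ± 0.07 and 0.44 ± 0.09 (SE, limma adjusted p = 0.00759 and 0.03). The early response gene IER3 was the other one that rose (0.43 ± 0.08, SE).

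The AP-1 subunit genes FOS and FOSB went the other way. FOSB read 8.23, 8.11 and 7.71 in SAH-BCL9B 1, 2 and 3, against 8.84, 9.08 and 9.02 in vehicle 1, 2 and 3, with no overlap. Its change was -0.96 ± 0.14 (SE, limma adjusted p = 0.00854), and that of FOS -0.63 ± 0.08 (SE, adjusted p = 0.00507). HBEGF, which encodes an EGF receptor ligand, had -0.32 ± 0.07 (SE, adjusted p = 0.0452). HBEGF missed the threshold in 11 of 15 alternatives, and its mean over all probe sets gave -0.10. FOS, FOSB and DUSP5 passed in all 15, and PLAUR in 14. IER3 passed in 9 and FOSL1 in 8, and both missed the threshold without SAH-BCL9B 1, SAH-BCL9B 3, vehicle 1, vehicle 2 or vehicle 3. DUSP7 passed in 7, of the single omissions only without vehicle 2, and HBEGF missed it whichever array was left out. The mean over all DUSP7 probe sets gave 0.31 (limma adjusted p = 0.171). The 8 calls became 4 without SAH-BCL9B 1, SAH-BCL9B 3, vehicle 1 or vehicle 3, 5 without vehicle 2 and 6 without SAH-BCL9B 2. The phosphatase gene DUSP6, often read beside SPRY4 as a direct ERK output, had 0.27 ± 0.09 (SE, adjusted p = 0.145).

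**Figure D4:**
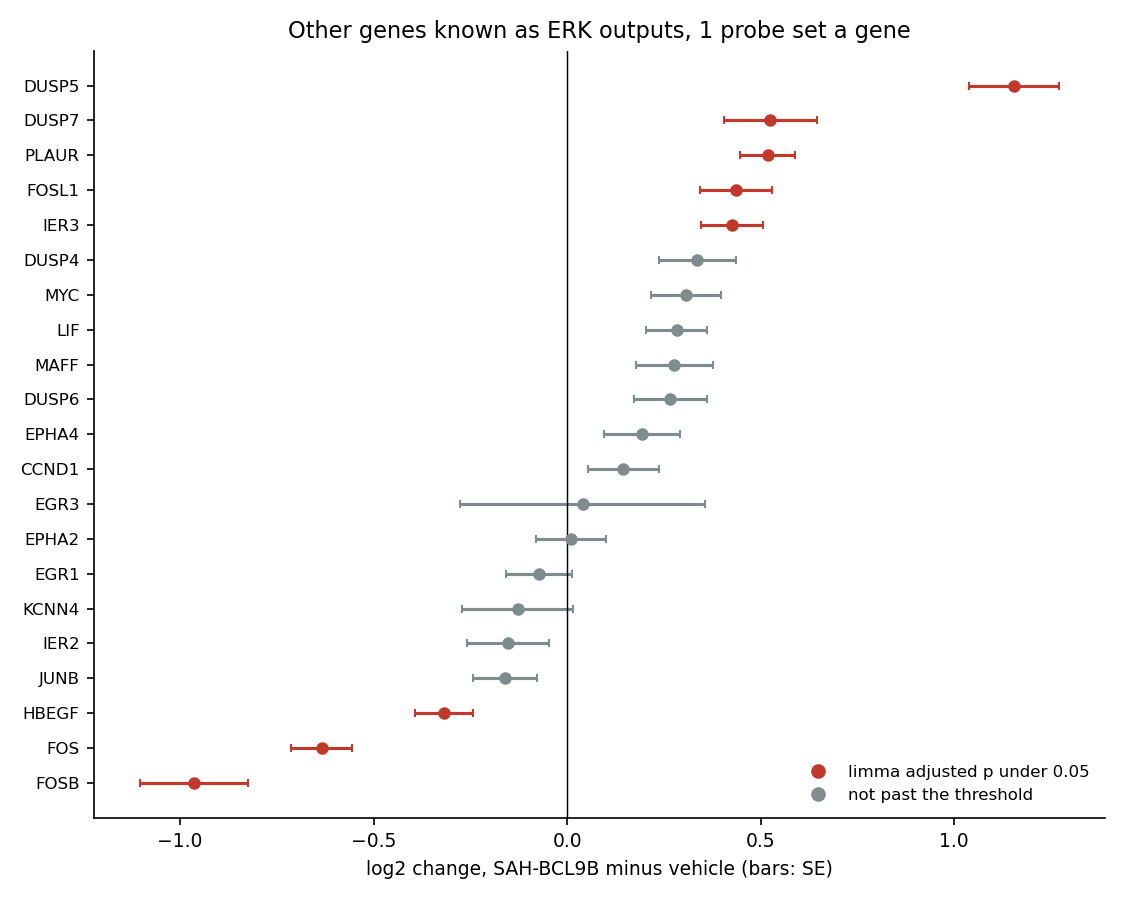
The log2 change (x axis, SAH-BCL9B minus vehicle, bars are SE) of 21 other genes known as ERK outputs, 1 probe set a gene, ordered by change. DUSP5 stands at 1.15 at the top and FOSB at -0.96 at the bottom, with 5 genes past the threshold upward and 3 downward.

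Of 21 listed genes of the cascade itself, 14 were measured by a probe set of their own, 3 rose and none fell (median change 0.055). These were the RAS gene HRAS (0.40 ± 0.07), the RAS exchange factor gene SOS1 (0.33 ± 0.07) and MAP2K2, which encodes MEK2 (0.31 ± 0.07; SE, limma adjusted p = 0.017, 0.0403 and 0.0457). All 3 missed the threshold without SAH-BCL9B 1, SAH-BCL9B 3, vehicle 1, vehicle 2 or vehicle 3 (limma adjusted p = 0.0553 to 0.182), and without SAH-BCL9B 2 only HRAS passed. With all probe sets of a gene averaged, SOS1 had 0.19 and MAP2K2 0.32 (limma adjusted p = 0.182 and 0.0782). HRAS passed in that setting (limma adjusted p = 0.0164). Among 11 relatives of the 9 genes, such as SPRY3, SPRED3 and other ETV and ELK genes, only PHLDA2 passed. PHLDA2, a relative of PHLDA1 known as an imprinted gene, read 13.57, 13.09 and 13.44 in SAH-BCL9B 1, 2 and 3, against 12.67, 12.65 and 12.68 in vehicle 1, 2 and 3. It rose by 0.70 ± 0.12 (SE, limma adjusted p = 0.0163), and missed the threshold without SAH-BCL9B 1, SAH-BCL9B 3, vehicle 1 or vehicle 2 (limma adjusted p = 0.0556 to 0.0715). The mean of its probe sets gave 0.23 (limma adjusted p = 0.22).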

How the data were processed

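The log2 values used here (54675 probe sets, 6 Affymetrix Human Genome U133 Plus 2.0 arrays) are the authors' own, as deposited. RMA and affy are the tools that the submitters' processing notes name, with no version or option given in the sources used here. The scale is read from the values, which run from 3.26 to 15.75. RMA makes arrays alike in distribution and shrinks changes of dim probe sets. Signal over background is unknown, and the number of arrays limits the precision.

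Groups and replicate numbers came from the titles. GEO's platform annotation gave the gene names, and Entrez IDs were looked up in RefSeq's GRCh38.p14 genes. Of the probe sets, 41091 named 1 gene, 1801 several and 11721 were unnamed here. The 62 array controls were left out, and no filter was set. limma 3.58.1 in R 4.3.3 (tables read with the data.table package, version 1.17.8) was fitted on 54613 probe sets with no covariates, and again on the brightest probe set of each of 19775 genes. Figures used matplotlib 3.10.9 in Python 3.11.15.

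On simulated data with the means and spreads of the 54613 probe sets, 53 of 100 changes of 1 and 1 of 100 changes of 0.5 were recovered, with 2 false calls. In the fit of 19775 genes, used for the other gene lists, these were 82 and 30, with 5 false calls. Only these 100 changes of each size were put into each simulation, against 1363 probe sets that passed in the data. The Benjamini-Hochberg cutoff depends on how many probe sets change, so recovery in the data may be higher.

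The members, lists and alternatives were chosen with earlier results of these data known. The rule for names took all 9 members, up to 6 genes past the threshold from each other list by size of change, and the 3 genes nearest to the most changed member. IER3, HBEGF, DUSP6, the markers named as checks and the dimmer probe sets given by array were chosen after their values were seen. Alternatives left out each array, or vehicle 3 and SAH-BCL9B 2 together, and tried a replicate block, a filter at the median level, averaged probe sets, other scalings and variance models, array weights and an ACTB covariate.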

Additional observations from a re-analysis of the deposited data

How the results depend on the processing

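The 2 calls among the 28 probe sets, SPRY4 and PHLDA1 218000_s_at, kept their direction in all 14 alternatives. SPRY4 passed in 7 of them (limma adjusted p = 0.00405 to 0.113, change -0.82 to -0.65) and PHLDA1 218000_s_at in 8 (0.00289 to 0.124, change 0.58 to 0.77). Leaving out 1 array gave 0 to 3 calls among the 28, and 97 to 1478 among all probe sets against 1363, with the fewest without vehicle 1. The same gave 4 to 6 of the other ERK output genes against 8, 0 to 1 of the cascade genes against 3 and 0 to 1 of the relatives against 1. These fits have fewer arrays. With vehicle 3 and SAH-BCL9B 2 both left out, 1 of the 28 passed (PHLDA1 218000_s_at, while SPRY4 had a limma adjusted p of 0.0579), 836 of all probe sets, 5 other ERK output genes and 1 cascade gene.

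Replicates of the same number were not shown to be paired: the correlation of their deviations from the group means was 0.41 for number 1, 0.058 for number 2 and -0.31 for number 3. With the replicate number as a block, 0 of the 28 and 171 of all probe sets passed, 3 other ERK output genes, 0 cascade genes and 0 relatives. It was the 1 setting in which PLAUR missed the threshold (limma adjusted p = 0.0555).

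The filter on low values gave 2725 calls over all probe sets and 2 among the relatives, the variance trend with robust fit 2923 calls and array weights 2738. The cascade genes had 1 call with a second quantile normalization, 1 with the ACTB covariate and 1 with probe sets averaged per gene, where the relatives had 0. The cause of these differences was not tested.

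Changes that turned their sign were all of probe sets that did not pass. With 1 array left out, SPRY1 230212_at ran from -0.033 to 0.17, SPRY2 from -0.069 to 0.073, SPRED1 244439_at from -0.22 to 0.12 and SPRED2 212458_at from -0.065 to 0.037. ETV1 221911_at ran from -0.37 to 0.10, ETV1 221910_at from -0.10 to 0.19, ETV1 217053_x_at from -0.060 to 0.13 and ETV5 231083_at from -0.075 to 0.16. With a second quantile normalization SPRY2 had -0.0075. With array weights SPRED1 244439_at had 0.019 and ETV1 221910_at -0.041. With the ACTB covariate SPRED1 244439_at had 0.12, ETV1 221911_at 0.15, ETV1 221910_at -0.14 and ETV5 231083_at -0.089. With vehicle 3 and SAH-BCL9B 2 left out SPRY2 had -0.034, SPRED1 244439_at 0.0048 and ETV1 221910_at -0.024. The mean of all probe sets of ETV1 gave 0.043, against -0.20 for the brightest. The cause was not tested. A change of 0.5 or less that did not pass could be real. In simulated probe sets 1 of 100 changes of 0.5 was recovered, with far fewer changes there than calls in the data. Recovery in the data may thus differ, and how far was not tested.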
